A study of Mus musculus with 4 samples.

Results

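Endogenous retroviruses of the ERVL group and their relatives of the MaLR group were followed in RNA of mouse embryonic fibroblasts (MEF cells) with and without Top2β. The deposited counts hold 1 row per gene and 1 row per repeat family, and the families described are all those whose name places them in ERVL or ERVL-MaLR. There were 218 of them (110 ERVL and 108 ERVL-MaLR) among 1562 repeat families and 56404 rows in all. The rule rests on the names.

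ERVL elements are old endogenous retroviruses that carry gag and pol genes but lack an env gene, so they copy themselves within the cell. MERVL is the young, still intact mouse member. Its internal region is listed as MERVL-int and its long terminal repeat (LTR), which acts as promoter, as MT2_Mm. MERVL is known for a burst of transcription in the 2-cell embryo, where MT2_Mm also serves as an alternative promoter of host genes, and it is held silent in most other cells. MaLR elements are relatives without a full set of genes of their own. The MT and ORR1 families belong to rodents, whereas the MLT1 families are shared by many mammals and their copies are worn.

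Ribosomal RNA was removed from total RNA before sequencing, and the libraries came from untreated wt MEF cells (2 libraries) and untreated Top2β-null MEF cells (2 libraries). The null cells derive from Top2β-null mice and came from another source than the wt cells, so the origin of the cells and the genotype cannot be told apart. The labels do not say that the libraries of a group come from separate cultures, and p-values then measure only the spread between these libraries. Multi-mapping reads were kept in mapping, and how they were counted is not given. Counts are by family, so a count does not show which copies gave the RNA. Nor does it show whether a copy was read from its own LTR or as part of a longer transcript such as an intron. Counts of related families can depend on each other through shared reads. Fewer cells with a transcript and less of it per cell cannot be told apart in bulk RNA.

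The libraries held 133116830 to 149647278 counts, of which 19.3% to 19.5% fell on repeats in wt and 20.3% and 21.4% in Top2β-null MEF cells. Top2b (chromosome 14 of GRCm38, 16365179 to 16435462) had 18259 and 18465 normalized counts in wt and 3879 and 3789 in Top2β-null libraries, in keeping with the labels. Normalized counts are counts scaled by edgeR's TMM factors to a common library size. All 7 fibroblast markers examined were present in both groups, with summed counts of 863750 and 919046 in wt and 521936 and 550851 in Top2β-null libraries. Of these, Thy1, Pdgfrb and Pdgfra were higher in Top2β-null MEF cells by the adjusted p, and Col1a1, Col3a1 and Vim were lower. Of 7 markers of pluripotent cells, Sox2 differed most, with 654 and 737 counts in Top2β-null MEF cells against 0 in both wt libraries, while the summed counts of the list were 21 and 17 in wt and 718 and 805 in Top2β-null libraries. Nanog was also higher, with 3 and 1 counts in wt and 42 and 43 in Top2β-null libraries. Pou5f1 had 9 to 20 counts in every library. The summed counts of 5 leukocyte markers were 2365 and 2550 in wt and 1250 and 1312 in Top2β-null libraries, with Ptprc at 2 to 7 counts and Tyrobp at 0 in every library. Of that list Cd68 was lower by the adjusted p, and Csf1r and Itgam were higher. Whether these cell type markers have a part in the results on the families was not tested.

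The Top2β-null libraries came in the same order in most of the families. Top2β-null replicate 1 lay above Top2β-null replicate 2 in 188 of the 211 tested ERVL and MaLR families (89.1%), by a median of 8.27%, and in 83.9% of all tested repeat families. The wt libraries showed no such offset, since wt replicate 1 lay above wt replicate 2 in 46.9% of the ERVL and MaLR families. A difference of a few percent between genotypes is therefore smaller than the distance between the Top2β-null replicates.

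As a whole, the ERVL and MaLR families were at nearly the same level in both genotypes. The ERVL rows summed to 591398 and 590506 normalized counts in wt libraries and to 614890 and 570391 in Top2β-null libraries. The MaLR rows summed to 2440960 and 2446870 in wt and to 2572130 and 2376480 in Top2β-null libraries. In both sums the wt libraries lay between the Top2β-null libraries. The log2 ratio of the Top2β-null to the wt mean was 0.0041 for ERVL (replicate SD 0.054) and 0.018 for MaLR (replicate SD 0.057), so neither exceeded the spread of replicates. Without Top2β-null replicate 1 the ratios were -0.051 and -0.040, and without replicate 2 they were 0.057 and 0.074. For the other LTR classes, summed the same way, the ratio was 0.088 for ERVK (replicate SD 0.038) and 0.10 for ERV1 (replicate SD 0.037). Scaling to the total count gave 0.074 for ERVL and 0.087 for MaLR, above the replicate SDs given, and 0.16 for ERVK and 0.17 for ERV1. With that scaling the median log2 fold change of all features was 0.072.

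Shares of all repeat counts need no scaling between libraries. ERVL and MaLR rows together took 10.8% ± 0.0329 (SD, n = 2) of the repeat counts of wt MEF cells and 10.7% ± 0.152 (SD, n = 2) of those of Top2β-null MEF cells. The groups did not overlap in this share, at 10.83% and 10.87% in wt and 10.81% and 10.6% in Top2β-null libraries, but Top2β-null replicate 1 was close to wt. ERVL rows alone took 2.11% in both wt libraries and 2.09% and 2.05% in Top2β-null libraries, whereas the share of MaLR rows overlapped. The 8 MERVL and MT2 rows took 0.931% and 0.933% in wt and 0.904% and 0.887% in Top2β-null libraries, again with no overlap. A share of repeat counts also depends on the other repeats. As normalized counts these 8 rows summed to 260768 and 260541 in wt and to 266649 and 246752 in Top2β-null libraries, which overlap. Their share of all counts was 0.181% and 0.180% in wt and 0.193% and 0.180% in Top2β-null libraries. The share of ERVK rows was 5.19% ± 0.000658 (SD, n = 2) for wt and 5.39% ± 0.0211 (SD, n = 2) for Top2β-null MEF cells.

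The test over all features detected no difference in MERVL itself between Top2β-null and wt MEF cells. MERVL-int had 50407 and 51061 normalized counts in wt and 51422 and 47151 in Top2β-null libraries, and the Top2β-null libraries lay on either side of the wt libraries. edgeR's quasi-likelihood test gave a log2 fold change of -0.042 with a standard error of 0.0342 (adjusted p = 0.302). The 95% interval runs from a decrease of 7.65% to an increase of 2.18%. Without Top2β-null replicate 1 the log2 fold change was -0.067 (adjusted p = 0.0323), and without replicate 2 it was 0.038 (adjusted p = 0.238), so its direction followed the library used. Fitting the repeat families without the genes gave -0.078 (adjusted p = 0.0116), and scaling to the total count gave 0.028 (adjusted p = 0.483).

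MT2_Mm, the LTR of MERVL, was lower by a small amount. It had 17775 and 17702 normalized counts in wt and 16792 and 15229 in Top2β-null libraries. Both Top2β-null libraries lay below both wt libraries. The log2 fold change was -0.15 (standard error 0.0351, 95% interval -0.22 to -0.073, adjusted p = 0.00155), a decrease of between 4.95% and 14.3%. It was -0.18 without Top2β-null replicate 1 and -0.060 (adjusted p = 0.0439) without replicate 2. Scaling to the total count gave -0.078 with an adjusted p of 0.0512.

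The ratio of MERVL-int to MT2_Mm within a library needs no scaling. There were 284 and 288 MERVL-int counts per 100 MT2_Mm counts in wt and 306 and 310 in Top2β-null libraries. The groups did not overlap and lay 0.11 apart on the log2 scale, with a pooled SD of replicates of 0.015. A two-sided exact permutation test gave p = 0.33, the smallest that 2 against 2 libraries allow. The difference stayed between 0.094 and 0.12 with each library left out in turn. A lack of overlap was common among such ratios. Of 45 pairs of an internal and an LTR row, this pair included, 18 were higher and 15 lower without overlap.

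**Figure D1:**
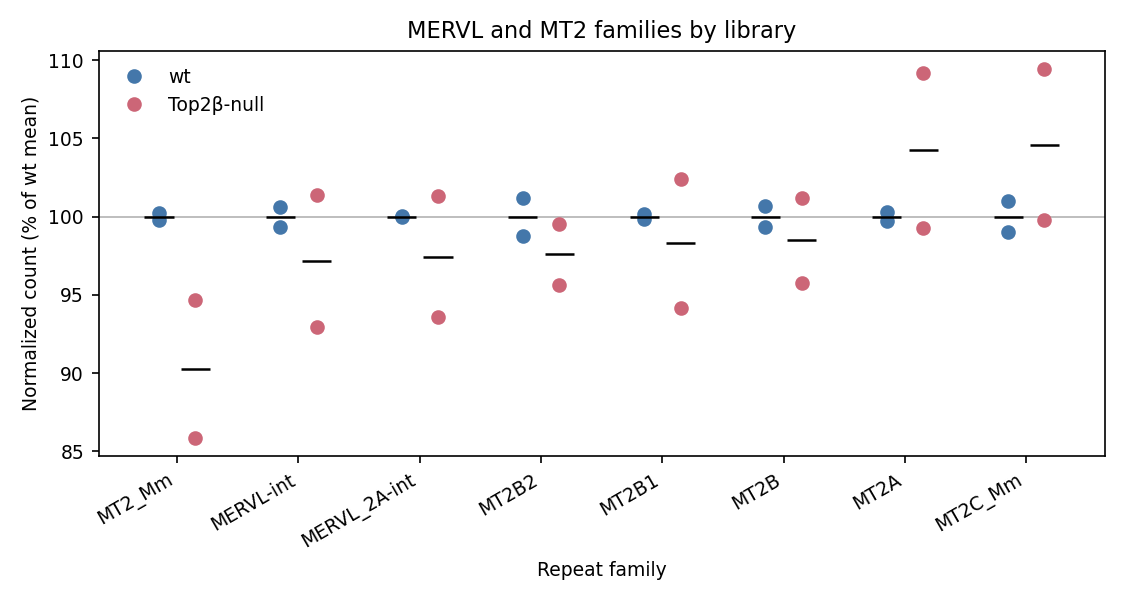
Normalized counts of the 8 MERVL and MT2 families as a percentage of each family's wt mean (y axis), with 1 point per library, blue for wt and red for Top2β-null MEF cells, and a short line at each group mean of 2 libraries. MT2_Mm is the family whose adjusted p was below 0.05, and in every family Top2β-null replicate 1 is the higher of the Top2β-null points.

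The other 6 rows of this group did not pass the test over all features, but some passed under other settings. MERVL_2A-int, also an internal row, had 37240 and 37232 normalized counts in wt and 37720 and 34838 in Top2β-null libraries (log2 fold change -0.038, adjusted p = 0.327). MT2A (0.060, adjusted p = 0.151) and MT2C_Mm (0.065, adjusted p = 0.119) had positive log2 fold changes. MT2B (-0.022), MT2B1 (-0.025) and MT2B2 (-0.035) had negative ones, with adjusted p of 0.531, 0.530 and 0.267. These rows are LTRs of MERVL relatives, and their wt replicates differed from each other by less than the Top2β-null replicates. The signs of MERVL-int, MERVL_2A-int, MT2B, MT2B1 and MT2B2 turned positive when libraries were scaled to the total count. With repeat families fitted alone, MERVL_2A-int, MT2B, MT2B1 and MT2B2 were lower (log2 fold changes -0.073, -0.057, -0.061 and -0.070, highest adjusted p = 0.0305). That fit also moved the median log2 fold change over all repeat families down, from 0.041 to 0.0060. MT2A and MT2C_Mm were higher with total counts (0.13 for both), without a filter on low counts (0.077 and 0.082) and without Top2β-null replicate 2 (0.15 for both).

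Across all families, few passed the cut-offs of the study. These ask for a mean of more than 100 normalized counts, a change of more than 1 on the log2 scale in either direction and an adjusted p below 0.05. Of the 218 families, 211 had enough counts to be tested and 198 of these had a mean above 100. MER70-int was called higher and MLT1J1-int was called lower, which is 0.474% of the tested families in each direction. Of all tested features, 5.27% were called higher and 4.97% lower, and of all tested repeat families 0.945% and 0.203%. Counts of 1 are too small to set these shares apart from those of all repeat families.

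With the adjusted p alone, 44 families were higher (20.9%), 25 were lower (11.8%) and 142 did not pass. The shares over all features were 32.5% higher and 32.5% lower, and over repeat families 27.6% higher and 12.5% lower. Scaling to the total count gave 98 families higher and 13 lower, and fitting the repeat families without the genes gave 26 and 40. The 2 libraries of each group did not overlap in 97 families (46.0%), of which 59 had the Top2β-null libraries above and 38 below, against 80.5% of all features and 56.2% of repeat families. The median log2 fold change over the tested families was 0.019, beside 0.041 over all repeat families and 0.0027 over all features. These counts moved with the library used, since without Top2β-null replicate 2 there were 100 families higher and 15 lower, and without replicate 1 there were 41 and 33.

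The spread of the fold changes over families with a mean above 100 was 0.236 (SD of the log2 fold change) for ERVL and MaLR, 0.445 for ERVK and 0.368 for ERV1. An absolute log2 fold change above 0.25 was found in 17.1% of the tested ERVL and MaLR families, in 23.7% of ERVK, 41.2% of ERV1 and 27.4% of all repeat families. By the adjusted p, 102 of 279 ERVK families were higher (36.6%) and 35 lower (12.5%). The shares were 27.6% and 12.5% of all repeat families and 32.5% of all features in each direction. The differences between classes were not tested.

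**Figure D2:**
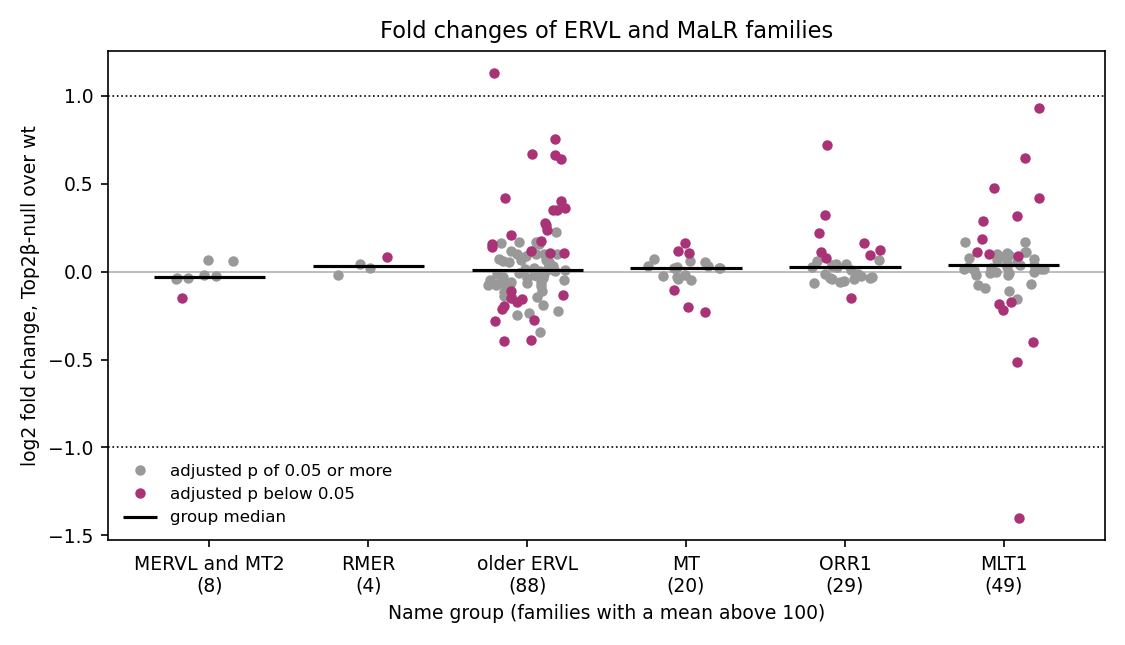
Log2 fold change of Top2β-null over wt MEF cells (y axis) for each family with a mean normalized count above 100, in 6 groups by name, with the number of families in brackets and a line at the median. Purple points have an adjusted p below 0.05, dotted lines mark the absolute log2 fold change of 1, and the 2 points beyond them are MER70-int (1.13) and MLT1J1-int (-1.40).

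The size of the fold changes fell as the count of a family rose. The 58 families with a mean above 10000 lay between -0.23 and 0.17, and 53 of them were within 0.1 of 0. The 85 families with a mean of 1000 to 10000 lay between -0.39 and 0.35. The 55 families of 100 to 1000 counts reached from -1.40 to 1.13. The median width of the 95% interval on either side rose in the same order, from 0.070 through 0.095 to 0.201, so the abundant families were also those measured best. The remaining 13 tested families had a mean below 100, where the median interval was 0.584 on either side.

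**Figure D3:**
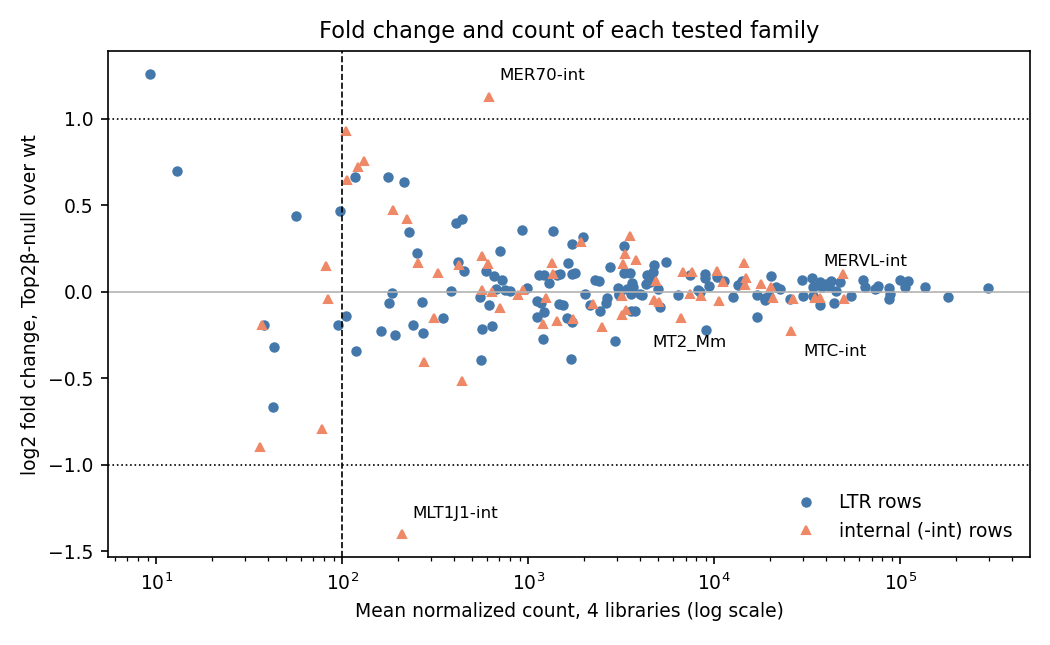
Log2 fold change of Top2β-null over wt MEF cells (y axis) against the mean normalized count over 4 libraries (x axis, log scale) for the 211 tested families, circles for LTR rows and triangles for internal rows. The dashed line marks a mean of 100, and the points close in on 0 toward high counts, with MTC-int the lowest among the families above 10000.

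The other 7 families could not be tested. HERVL32-int, MLT1E1-int, MLT1L-int and MLT1O-int had 0 counts in all 4 libraries, which allows up to 3 counts in each by counting error. MER76-int had 4 and 1 counts in wt and 3 and 3 in Top2β-null libraries. MLT1K-int had 0 and 2 in wt and 9 and 6 in Top2β-null libraries. MLT1N2-int had 2 and 0 in wt and 1 and 0 in Top2β-null libraries. All 7 are internal rows, and the last 3 are too thin for a comparison.

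MER70-int, the internal region of an old ERVL element, was the family called higher. It had 387 and 388 normalized counts in wt and 869 and 826 in Top2β-null libraries. Each Top2β-null library lay at more than the sum of both wt libraries. The log2 fold change was 1.13 (standard error 0.0692, 95% interval 0.98 to 1.28, adjusted p = 4.7e-10). No LTR row of the same name passed the test in this direction. MER70A had 496 and 612 normalized counts in wt and 582 and 506 in Top2β-null libraries (log2 fold change -0.029, adjusted p = 0.809), and MER70B was slightly lower (-0.20, adjusted p = 0.0361). Counts are summed over copies, so the copies behind this row were not examined.

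MLT1J1-int, the internal region of an old MaLR element, was the family called lower. It had 339 and 267 normalized counts in wt and 117 and 112 in Top2β-null libraries. The wt libraries differed from each other more than the Top2β-null libraries did, and both lay above them. The log2 fold change was -1.40 (standard error 0.142, 95% interval -1.70 to -1.10, adjusted p = 2.6e-07). Its LTR, MLT1J1, had 4064 and 3923 normalized counts in wt and 4141 and 3793 in Top2β-null libraries and did not pass the test (log2 fold change -0.0099, adjusted p = 0.851).

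**Figure D4:**
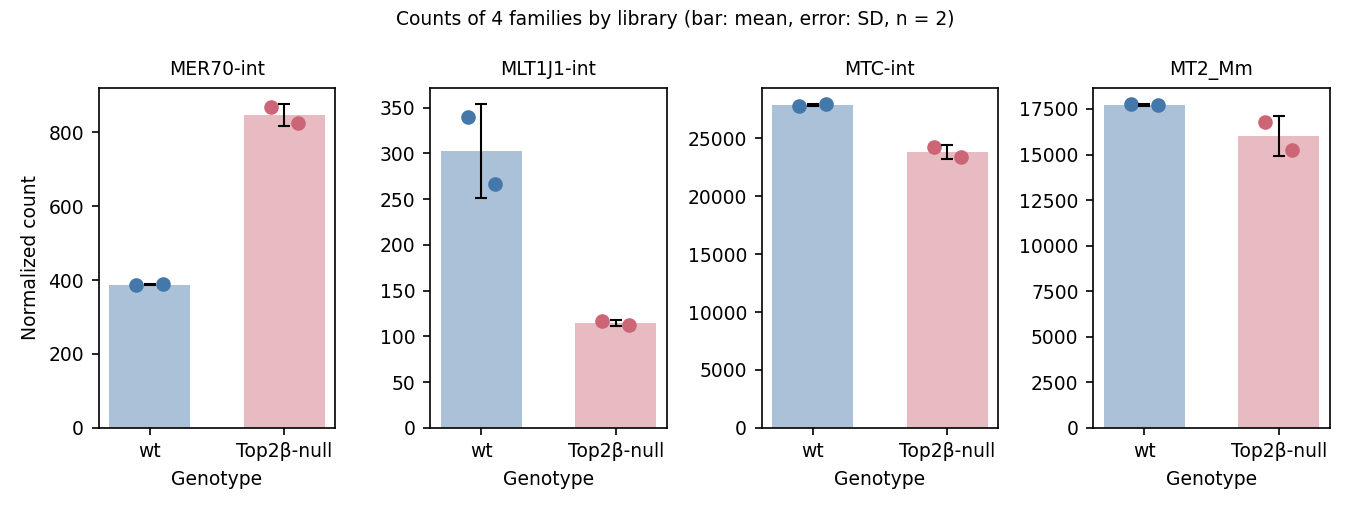
Normalized counts (y axis, from 0) of MER70-int, MLT1J1-int, MTC-int and MT2_Mm in wt (blue) and Top2β-null (red) MEF cells, with bars at the mean, error bars for the SD (n = 2) and 1 point per library. The first pair were called by the cut-offs of the study, and the changes of MTC-int (-0.23) and MT2_Mm (-0.15) are small beside them.

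Among the rodent families of ERVL named RMER, 1 of 4 was higher and none was lower by the adjusted p, beside 27.6% and 12.5% of all repeat families and 32.5% of all features in each direction. RMER10A had 32950 and 31801 normalized counts in wt and 35172 and 33331 in Top2β-null libraries (log2 fold change 0.081, adjusted p = 0.0258). The call was lost without wt replicate 2 (0.041, adjusted p = 0.334) and with repeat families fitted alone (0.046, adjusted p = 0.0722). RMER15, the row with the most counts here, had a log2 fold change of 0.019, and RMER10B of -0.018. Neither passed, but RMER15 passed as higher without Top2β-null replicate 2 (0.091, adjusted p = 0.00362) and with total counts (0.089, adjusted p = 0.0229), and RMER10B passed as lower with repeat families fitted alone (-0.053, adjusted p = 0.0332).

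The older ERVL families were 98 rows, most of them LTRs named LTR, MER or MLT2, of which 96 were tested. By the adjusted p, 22 were higher (22.9%) and 12 lower (12.5%), beside 32.5% of all features in each direction, and their median log2 fold change was 0.012. MER21C, the row with the most counts, had 19916 and 19574 normalized counts in wt and 20108 and 18661 in Top2β-null libraries (log2 fold change -0.027, adjusted p = 0.476). It passed as lower with repeat families fitted alone (-0.062, adjusted p = 0.0123). MER88 had the lowest value among rows with a mean above 100, with 601 and 662 normalized counts in wt and 452 and 509 in Top2β-null libraries (-0.39, adjusted p = 4.2e-04). MLT2F, which lay next to it, had 1931 and 1914 in wt and 1479 and 1456 in Top2β-null libraries (-0.39, adjusted p = 1.8e-06). In MER88 and MLT2F alike the groups did not overlap.

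Related LTRs of this group did not all move alike, as a set of names chosen after their values were seen shows. Of the 5 LTR33 rows, LTR33 was lower (log2 fold change -0.11, adjusted p = 0.0108), while LTR33A (0.27), LTR33A_ (0.28), LTR33B (0.42) and LTR33C (0.35) were higher. LTR33A had 2962 and 2966 normalized counts in wt and 3652 and 3475 in Top2β-null libraries. LTR33 had 3907 and 3913 in wt and 3680 and 3557 in Top2β-null libraries, below wt in both. Of the 5 LTR86 rows, 3 were higher and 2 did not pass. Of the 12 LTR16 rows, 1 was higher, 2 were lower and 9 did not pass. The share of all features was 32.5% in each direction, and nothing can be read from counts in names picked this way.

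The MT families, rodent MaLR elements, had small fold changes. Of 20 rows, 3 were higher and 3 lower by the adjusted p (15% each way, beside 32.5% of all features), with a median log2 fold change of 0.022 and a range from -0.23 to 0.16. MTD, which had the most counts of all ERVL and MaLR rows, uncorrected for length, had 292659 and 293867 normalized counts in wt and 309764 and 285070 in Top2β-null libraries (0.020, adjusted p = 0.656). It passed as higher without Top2β-null replicate 2 (0.098, adjusted p = 0.0105) and with total counts (0.090, adjusted p = 0.0429). MTC-int was the lowest. It had 27825 and 27966 normalized counts in wt and 24247 and 23391 in Top2β-null libraries, with no overlap (log2 fold change -0.23, standard error 0.0260, adjusted p = 1.0e-06). Its LTR, MTC, had a log2 fold change of -0.030 (adjusted p = 0.471). MTE2b-int was the highest, with 3035 and 3045 normalized counts in wt and 3565 and 3245 in Top2β-null libraries (0.16, adjusted p = 0.00438), and it did not pass with repeat families fitted alone (0.13, adjusted p = 0.0690). MTA_Mm-int, the internal region of a young MT element, was also higher (0.10, adjusted p = 0.0058), and MTB_Mm-int was lower (-0.20, adjusted p = 6.6e-04). Each of the 6 MT rows that passed was an internal row, which was seen after the values were known. Over all ERVL and MaLR families, 49.2% of internal and 25.3% of LTR rows passed, beside 65.0% of all features.

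The ORR1 families are the other rodent MaLR elements. Of 29 rows, 8 were higher (27.6%) and 1 was lower (3.45%) by the adjusted p, beside 27.6% and 12.5% of all repeat families and 32.5% of all features in each direction. The balance of directions was not tested against that of other repeats. ORR1D1, the row with the most counts, had 133727 and 133804 normalized counts in wt and 140382 and 132016 in Top2β-null libraries (log2 fold change 0.026, adjusted p = 0.497). It passed as higher without Top2β-null replicate 2 (0.088, adjusted p = 0.00909) and with total counts (0.096, adjusted p = 0.0150). ORR1G-int had the highest value, at 99.9 and 83.1 normalized counts in wt and 162 and 140 in Top2β-null libraries (0.72, standard error 0.168, adjusted p = 0.00137). ORR1F-int rested on more counts, with 3142 and 3087 in wt and 3941 and 3848 in Top2β-null libraries (0.32, adjusted p = 8.7e-07). ORR1B2-int was the row that was lower, with 6920 and 6989 in wt and 6377 and 6143 in Top2β-null libraries (-0.15, adjusted p = 2.0e-04).

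The MLT1 families, the mammal-wide MaLR elements, had the widest range of the MaLR groups, from -1.40 to 0.93 among rows with a mean above 100. Of 54 tested rows, 10 were higher (18.5%), 8 were lower (14.8%) and 36 did not pass, beside 32.5% of all features in each direction, with a median log2 fold change of 0.025. MLT1A0, the row with the most counts, had a log2 fold change of 0.065 and did not pass. It passed as higher without Top2β-null replicate 2 (0.16, adjusted p = 5.0e-08), with total counts (0.13) and without a filter on low counts (0.082). MLT1E1A-int was the highest, with 54.5 and 89.8 normalized counts in wt and 144 and 133 in Top2β-null libraries (0.93, standard error 0.207, adjusted p = 9.3e-04). Its value depended on the wt library used, at 0.61 without wt replicate 1 and 1.33 without wt replicate 2. MLT1G1 was lower, with 9519 and 9886 in wt and 8580 and 8071 in Top2β-null libraries (-0.22, adjusted p = 1.2e-05), whereas its internal row MLT1G1-int, at 73.4 to 132 normalized counts, was higher (0.65, adjusted p = 0.00442).

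Internal and LTR rows were also counted separately. By the adjusted p, 19 of 65 tested internal rows were higher and 13 lower, and 25 and 12 of 146 LTR rows. That is 49.2% of internal and 25.3% of LTR rows in either direction, beside 40.1% of all repeat families and 65.0% of all features. The median mean count was 1928 for internal and 3043 for LTR rows, and the difference in shares was not tested. A solitary LTR is the usual remnant of an old insertion, so LTR rows gather many copies that have no internal region left.

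An internal row and the LTR row of the same name could be paired for 45 elements with both means above 100. The ratio of internal to LTR counts within a library was higher in both Top2β-null libraries than in both wt libraries for 18 pairs, lower for 15 and overlapping for 12. For the counts themselves, a different quantity, the groups did not overlap in 80.5% of all features and 56.2% of repeat families. The median difference in the log2 ratio was 0.0075, so the pairs went in either direction. The lowest difference was -1.38 for MLT1J1 and the highest 0.94 for MLT1E1A, with MLT1G1 next at 0.87. MLT1E1A had 1.30 and 2.12 internal counts per 100 LTR counts in wt and 3.25 and 3.11 in Top2β-null libraries. Its difference, and so its rank, depends on the wt library used. In MTC, where both rows had many counts, there were 15.3 and 15.4 internal counts per 100 LTR counts in wt and 13.1 and 13.6 in Top2β-null libraries, a log2 difference of -0.20 (pooled replicate SD 0.029). In ORR1F there were 2.91 and 2.88 in wt and 3.37 and 3.58 in Top2β-null libraries, a difference of 0.26 (pooled replicate SD 0.045). In MTA_Mm there were 45.3 and 44.8 in wt and 46.7 and 48.2 in Top2β-null libraries, a difference of 0.074 (pooled replicate SD 0.024).

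**Figure D5:**
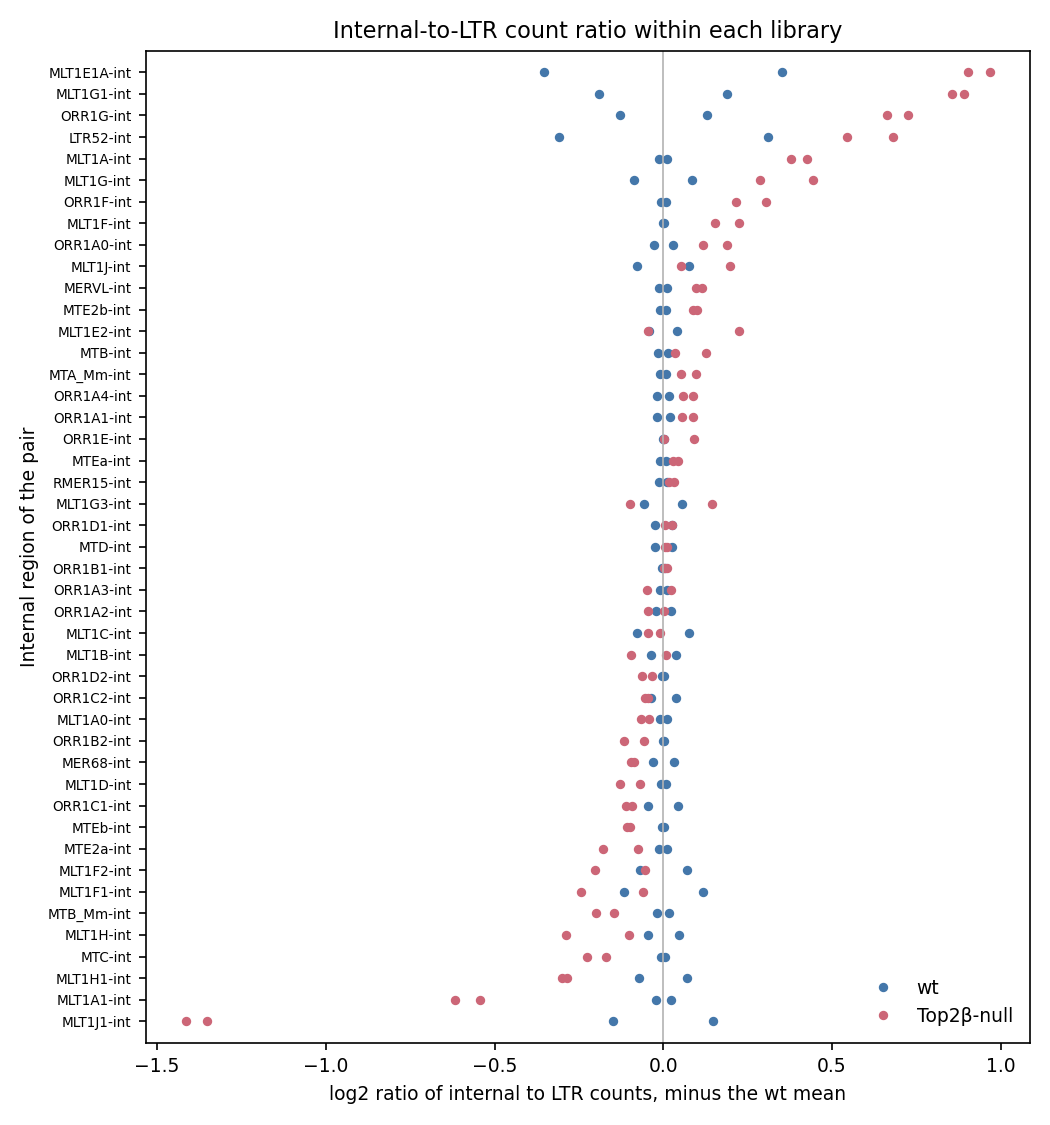
Log2 ratio of internal to LTR counts within each library minus the wt mean (x axis) for 45 internal and LTR pairs, ordered by the difference between genotypes, blue for wt and red for Top2β-null libraries. Most pairs lie close to 0, and MLT1J1-int (-1.38) and MLT1E1A-int (0.94) end the order.

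Genes transcribed with MERVL in the 2-cell embryo were close to absent from both groups. Of 24 listed genes, 23 are in the table and 2 had enough counts for the test. Usp17la and Usp17lb, ubiquitin proteases of a family of near-identical copies, were both higher by the adjusted p, as were 32.5% of all features. Usp17la had 40 and 67 counts in wt and 102 and 79 in Top2β-null libraries (log2 fold change 0.80, adjusted p = 0.0101), and Usp17lb had 2 and 6 in wt and 22 and 16 in Top2β-null libraries (2.25, adjusted p = 0.00181). Their values are uncertain, since the way reads were divided among such copies is not known, and neither passed the cut-offs of the study. Without Top2β-null replicate 1 neither of them had an adjusted p below 0.05. The other 21 genes were not tested, and 4 of them had 0 counts in every library. The activators Dppa2 (0 and 0 counts in wt, 9 and 5 in Top2β-null libraries) and Dppa4 (0 and 0, 1 and 0) were also too thin to test.

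Factors known to repress MERVL were transcribed in both groups, except Zfp42, which had 0 and 0 counts in wt and 1 and 0 in Top2β-null libraries. Of 24 listed, 23 were tested, 10 were higher and 8 lower by the adjusted p, with a median log2 fold change of 0.053, beside 32.5% of all tested features in each direction. The lowest value was -0.92 for E2f6, a repressor of germline genes (adjusted p = 1.9e-11), followed by -0.59 for Uhrf1, which maintains DNA methylation (adjusted p = 4.3e-12). Smchd1 (-0.43), Mbd3 (-0.40) and Chaf1a (-0.38) were also lower. Rybp (0.75), Mga (0.52), Rcor1 (0.43), Chaf1b (0.40) and Hdac1 (0.36) were higher. Kdm1a, a histone demethylase that keeps MERVL silent in embryonic stem cells, had 10648 and 11056 normalized counts in wt and 9770 and 9915 in Top2β-null libraries (-0.14, adjusted p = 2.3e-04). Trim28, the co-repressor recruited by KRAB zinc finger proteins, was higher (0.26, adjusted p = 3.0e-07), as was Setdb1, the histone H3 lysine 9 methyltransferase that works with it (0.55, adjusted p = 8.7e-12). Zmym2, a zinc finger protein of the same repressive complexes as Kdm1a, did not pass (-0.020, adjusted p = 0.523). Kdm5b, a demethylase of histone H3 lysine 4 (chromosome 1, 134560171 to 134635285), was the factor called by the cut-offs of the study, with 841 and 845 normalized counts in wt and 2323 and 2258 in Top2β-null libraries (1.44, adjusted p = 3.1e-13). The list therefore held members in both directions, as did all tested features.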

How the data were processed

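Reads were trimmed by the authors, mapped to mm10 (GRCm38) with STAR, multi-mapping reads included, and assigned with TEtranscripts to Gencode genes and to the families of RepeatMasker. The authors deposited the raw counts in 1 column per library. The counting mode, strand setting and family lengths are not given in the sources used here, so differences in count between families are not differences in level. Ratios of internal to LTR counts serve only to compare libraries. Gene positions come from GENCODE M21 (GRCm38).

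The 26566 features that reached 10 counts in 2 or more libraries were fitted with edgeR 4.0.16 in R 4.3.3. A quasi-likelihood model used TMM factors over genes and repeats and genotype as the only term. P-values were adjusted over all features by the Benjamini-Hochberg method, intervals are at 95%, and summaries were made with numpy 2.4.6, pandas 2.3.3 and scipy 1.17.1. In simulated data with 200 of 26036 features changed, all 200 were recovered, and 12 unchanged features passed. The planted changes were at least 1 on the log2 scale, in features with a mean above 100. Recovery of smaller differences, such as those of most families here, was not tried.

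The families and gene lists were chosen with earlier results of these data known. Named were all MERVL and MT2 rows, called families and, per name group, the row with the most counts and the highest and lowest fold change above a mean of 100. Of the list genes, those called and Kdm1a, Trim28, Zmym2 and Setdb1 were named by rule. Other families and genes were named after their values were seen. Alternatives were DESeq2 1.42.0, 2 other scalings, 2 other filters, repeats fitted alone, a replicate block, the adjusted p as the only cut-off, DESeq2 size factors for sums, and leaving out each library. Replicate libraries varied beyond counting error, since chi-square over its degrees of freedom was 3.65 for the wt pair and 5.07 for the Top2β-null pair, and were used separately. Genistein-treated cells are not analysed here.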

Additional observations from a re-analysis of the deposited data

How the results depend on the processing

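MER70-int and MLT1J1-int were called under every alternative run. Scaling to the total count gave 2 families called higher, and leaving out each library gave 1 to 3 (3 without wt replicate 2). The adjusted p as the only cut-off gave 44 higher and 25 lower. By the adjusted p, families higher numbered 98 with total counts, 26 with repeats fitted alone and 38 to 100 with a library left out. Families lower numbered 14 with DESeq2, 13 with total counts, 40 with repeats alone and 15 to 33 with a library left out. The median log2 fold change of all features was 0.072 with total counts. That of all repeat families was 0.0060 with repeats alone, beside 0.041 in the fit over all features.

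MERVL-int had a log2 fold change of 0.028 with total counts, -0.078 with repeats alone (adjusted p = 0.0116) and -0.067 to 0.038 with a library left out. MT2_Mm was -0.078 with total counts (adjusted p = 0.0512). Total counts also turned MER21C (0.043), MERVL_2A-int (0.032), MT2B (0.047), MT2B1 (0.045), MT2B2 (0.035) and RMER10B (0.052) positive, and repeats alone turned MTD (-0.016), ORR1D1 (-0.0093) and RMER15 (-0.017) negative. With a library left out, values ran from -0.054 to 0.045 (MER21C), -0.057 to 0.037 (MERVL_2A-int), -0.047 to 0.036 (MT2B), -0.048 to 0.053 (MT2B1), -0.067 to 0.012 (MT2B2), -0.0017 to 0.098 (MTD) and -0.040 to 0.037 (RMER10B). The sums with total counts had log2 ratios of 0.074 (ERVL), 0.087 (MaLR) and 0.048 (MERVL and MT2). With a library left out they ran from -0.051 to 0.057, -0.040 to 0.074 and -0.079 to 0.033. The 2-cell list had 0 genes higher by the adjusted p with at least 100 counts in every library and 0 to 2 with a library left out. The cause was not tested.

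Same-numbered libraries did not deviate together (correlation 0.0197 over 17952 features), and the numbers were taken to name libraries only. The labels do not say whether a number marks a shared preparation. With the replicate number as a block, MT2_Mm was -0.15 and 46 families were higher and 26 lower by the adjusted p. Depth limits the 13 families under 100 counts, where the median 95% interval reached 0.584 on either side.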
